A study of Mus musculus with 16 samples.

Results

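The growth hormone and insulin-like growth factor (IGF) axis was followed through 10 genes, chosen by symbol: Ghr, Stat5b, Igf1, Igfals, Igfbp1, Igfbp2, Igfbp3, Igfbp4, Socs2 and Cish. Each was found as 1 row among the 32989 rows (31098 distinct symbols) of the liver and kidney expression tables. The data were poly(A) RNA-seq of both organs of 8 male C57BL/6J mice, 16 libraries in all. LD-conditioned mice (L63, L65, L86 and L104) lived for 85 weeks in a regular light-dark cycle, and ADV-conditioned mice (A75, A91, A94 and A115) lived for 85 weeks in a cycle that was advanced by 8 h every 4 days. All were 97 weeks old, of wild type, and chosen by the study among mice without apparent weakness or injury. Organs were taken in 1 window of the light cycle, so that a changed level and a changed time of the daily peak cannot be told apart. Blood hormone and IGF1 protein were not analysed here.

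Growth hormone from the pituitary binds its receptor, GHR, and acts through the kinase JAK2 and the transcription factor STAT5B. In the liver this signal induces Igf1, the source of most circulating IGF1, and Igfals, the acid-labile subunit that holds IGF1 and IGFBP3 in a long-lived complex in blood. SOCS2 and CISH are induced by the same signal and restrain it. The IGF-binding proteins carry IGFs and limit their access to the receptor, and Igfbp1 in liver is a classical fasting gene that insulin represses through FOXO factors.

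Values are in FPKM, fragments scaled to exon length and to the total of the library. Fragments counted on genes numbered 21092501 to 24285055 per library in the liver and 15688495 to 18043306 in the kidney. Hepatocyte markers summed to 58647 to 72321 FPKM in the 8 livers and 765 to 1135 in the 8 kidneys, and proximal tubule markers to 32.0 to 40.3 in the livers and 643 to 3096 in the kidneys, so that the organ labels held. Libraries of A115 and A94 stood apart. The kidney of A115 had 30.9% of its fragments on mitochondrial genes (8.63% to 16.5% in the other kidneys) and a proximal tubule marker sum of 643 FPKM (2130 to 3096 in the others). The liver of A94 had summed macrophage markers of 718 FPKM and lymphocyte markers of 83.6 FPKM, against 166 to 305 and 3.76 to 7.35 in the other livers. The kidney of A94 had summed macrophage markers of 458 FPKM and lymphocyte markers of 96.1 FPKM, against 57.7 to 206 and 6.82 to 14.5 FPKM in the other kidneys.

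In the liver, the axis genes covered a wide range of levels. Igfbp4 was the most abundant, at 583 FPKM on average over 8 mice, followed by Igfbp2 (228 FPKM), Ghr (141 FPKM), Igf1 (92.8 FPKM), Igfals (42.1 FPKM) and Igfbp1 (32.9 FPKM). The remaining genes, Socs2 (8.77 FPKM), Stat5b (7.12 FPKM), Igfbp3 (6.18 FPKM) and Cish (5.91 FPKM), lay close together. Neighbours in this order had separate ranges over the 8 mice only for Igfbp4 over Igfbp2 and Igf1 over Igfals. All 10 genes passed the filter on low values in both organs.

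**Figure D1:**
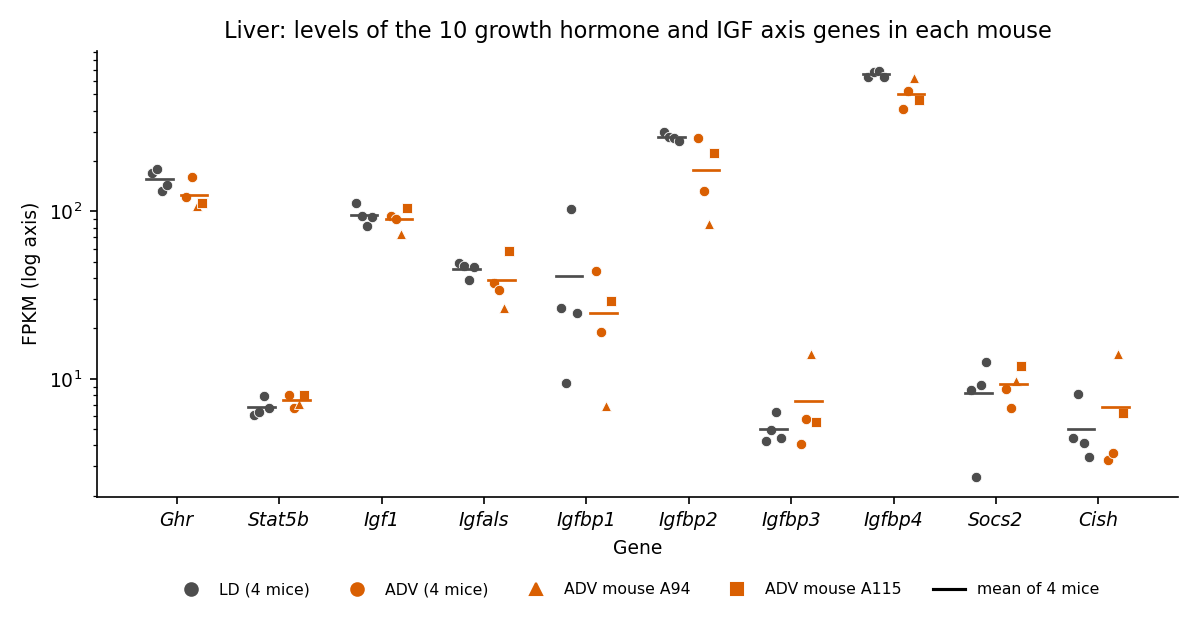
FPKM on a log axis for the 10 axis genes in the liver of each mouse, with LD mice in grey and ADV mice in orange; each point is 1 mouse and each line the mean of 4. For Igfbp4 all 4 ADV mice (408 to 622 FPKM) lie below the LD mice (633 to 689 FPKM), and A94 (triangles) is the lowest mouse for 5 genes.

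In the ADV-conditioned liver, no axis gene passed the test after adjustment over all genes, and the binding proteins Igfbp4 and Igfbp2 had the lowest unadjusted p-values, both with lower means under ADV. With limma on log2(FPKM + 0.1) and Benjamini-Hochberg adjustment, 0 of the 10 genes had an adjusted p under 0.05, where 0.00779% of the 12835 genes tested did (1 gene). At an unadjusted p under 0.05, 2 of the 10 passed, both lower in ADV, where 11.8% of all genes passed, and 3.13% passed with a lower level in ADV. The median ADV minus LD difference of the 10 genes was -0.18, beside 0.10 for all genes tested, and 6 of the 10 were below 0. This median was -0.05 without A94 and -0.0034 without L86, with 5 of the 10 below 0 in both. The count at an unadjusted p changed with the mice used, with all that passed lower in ADV. It was 1 without L63, without L65 or without L104, where 396 of 12894, 278 of 12875 and 245 of 12870 genes were lower. It was 2 without A94, where 5.66% of all genes were lower, and 3 without A115, where 2.96% were. It was 1 after quantile normalization, where 997 of 12835 genes were lower, and 0 with both organs in 1 fit, where 160 were. After scaling by the median ratio it was 2, where 936 of 12835 genes were lower and 795 higher. The median of the 10 genes was then -0.28, beside -0.0019 for all genes.

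Igfbp4, which encodes a binding protein that generally holds IGFs back from their receptor, lies on mm10 chr11:99041260-99052646. Its liver level was 639, 684, 689 and 633 FPKM in L63, L65, L86 and L104, and 408, 527, 622 and 466 FPKM in A75, A91, A94 and A115. Every ADV mouse was below every LD mouse, and Igfbp4 was the single axis gene whose liver groups did not overlap. Of the 12835 genes tested, 243 (1.89%) were lower and 891 higher in ADV without overlap. The mean was 661 ± 29.6 FPKM in LD and 506 ± 91.7 FPKM in ADV (SD, n = 4 each). The log2 difference was -0.40 with a 95% confidence interval of -0.72 to -0.09. By limma the p was 0.0169 and the adjusted p 0.363. The exact two-sided permutation test over mice gave 0.0286, the smallest p that 4 against 4 mice allow. Without A94 the difference was -0.51 (adjusted p = 0.153 by limma), A94 being the ADV mouse nearest to LD.

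Igfbp2, a binding protein made mainly by the liver in adults, lies on chr1:72824480-72852474. Its liver level was 299, 278, 274 and 262 FPKM in the LD mice and 273, 132, 84.0 and 222 FPKM in A75, A91, A94 and A115. The LD mice were within 1.14-fold of each other, whereas the ADV mice spanned 3.24-fold, with A91 and A94 low and A75 inside the LD range. The log2 difference was -0.79 (95% confidence interval -1.50 to -0.08), with p = 0.0333 and an adjusted p of 0.391 by limma, and the exact permutation test gave 0.0571. Without A94 the difference was -0.48, so that this mouse moved the value by over 1.5 times.

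Summed over Igfbp1 to Igfbp4, the binding proteins reached 968, 977, 1073 and 924 FPKM in the LD livers and 728, 683, 727 and 722 FPKM in the ADV livers. The ADV sums lay close together although their make-up differed, since Igfbp4 formed 56.0% of the sum in A75 and 85.5% in A94, and Igfbp2 37.4% and 11.6%. The sum is dominated by the genes just described and was given no test.

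Igfbp3, whose product carries IGF1 in the complex with the acid-labile subunit and which liver sinusoidal and other non-parenchymal cells express, lies on chr11:7206086-7213923. Its liver level was 4.25, 4.93, 6.36 and 4.41 FPKM in the LD mice and 4.08, 5.74, 14.2 and 5.55 FPKM in the ADV mice. The value of A94 stood apart, and the other ADV mice lay within or close to the LD range. The log2 difference was 0.41 (adjusted p = 0.594 by limma) and 0.04 without A94.

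Igfbp1, on chr11:7197787-7202546, was the most variable axis gene in the liver. Its level was 26.3, 9.46, 103 and 24.8 FPKM in the LD mice and 43.8, 19.0, 6.93 and 29.1 FPKM in the ADV mice, a 10.9-fold range in LD and a 6.32-fold range in ADV that overlapped. The log2 difference of -0.48 had a confidence interval of -2.12 to 1.16, and its direction turned on single mice, with 0.14 without L86, 0.033 without A94 and -1.003 without L65. The upstream region of Igfbp1 is shown because its control through forkhead factors is the textbook case of insulin repression in this axis. The 250 bases before the RefSeq start site (GRCm38.p6, chr11:7197537-7197786, + strand) held 1 match to CAAAACA, in capitals, 108 bases before the start, and none to GTAAACA or TTCNNNGAA.
Igfbp1 upstream: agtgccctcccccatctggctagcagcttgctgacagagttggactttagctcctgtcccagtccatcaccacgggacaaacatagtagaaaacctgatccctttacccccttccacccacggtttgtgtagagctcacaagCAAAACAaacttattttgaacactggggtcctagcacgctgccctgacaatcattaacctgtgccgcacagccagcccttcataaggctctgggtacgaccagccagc
On either strand, CAAAACA occurred in 6.28% and GTAAACA in 3.65% of the 32851 RefSeq promoter windows of 300 bases, so that a match by letters is a description and no site.

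Ghr, the receptor gene, lies on chr15:3317755-3581842. Its liver level was 171, 179, 133 and 144 FPKM in the LD mice and 122, 160, 107 and 112 FPKM in the ADV mice. A75, A94 and A115 were below every LD mouse, and A91 lay inside the LD range. The log2 difference was -0.33 (95% confidence interval -0.67 to 0.01), with an adjusted p of 0.436 by limma and an exact permutation p of 0.114.

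Stat5b, the main transducer of growth hormone in liver, lies on chr11:100780731-100850585. Its liver level was 6.12, 6.33, 7.94 and 6.70 FPKM in the LD mice and 8.03, 6.71, 7.12 and 8.01 FPKM in the ADV mice. The groups overlapped, and the log2 difference was 0.14 (-0.12 to 0.41). Among the transducers of the wider list, the kinase gene Jak2 was at 3.70 ± 0.575 FPKM in LD and 4.67 ± 1.11 FPKM in ADV, and Stat5a at 2.46 ± 0.434 and 2.05 ± 0.370 FPKM (SD, n = 4 each). Neither passed at an unadjusted p of 0.05. Stat5a and Stat5b are close paralogs, and the authors removed reads with a mapping quality below 10. What this did to reads from sequence shared by both genes was not tested.

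Igf1, the main growth factor product of the axis, lies on chr10:87859052-87937047. Its liver level was 113, 94, 81.4 and 92.9 FPKM in the LD mice and 93.4, 89.9, 73.6 and 105 FPKM in the ADV mice. The ranges overlapped over most of their width, and the log2 difference was -0.08 with a 95% confidence interval of -0.38 to 0.23, which turned to 0.0068 without L63 and 0.018 without A94. Igfals, on chr17:24878770-24882008, was at 49.1, 47.0, 39.2 and 46.6 FPKM in the LD mice and 37.2, 33.7, 26.5 and 57.7 FPKM in the ADV mice. A75, A91 and A94 were below every LD mouse and A115 was above every LD mouse, and the log2 difference was -0.28 (-0.75 to 0.19). It was -0.12 without A94 (adjusted p = 0.783 by limma) and -0.49 without A115 (adjusted p = 0.453).

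The closest of the relations computed across mice was that of Igf1 with Igfals in the liver. Pearson's r of their log2 levels over the 8 mice was 0.83 (permutation p = 0.0115) and Spearman's rho 0.86 (permutation p = 0.0107). Adjusted over the 11 relations computed, the p-values were 0.127 and 0.118, above 0.05. Without A94 and L63, the mice farthest from the median of Igf1, r was 0.70, and without A94 alone it was 0.67 (permutation p = 0.0972).

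The feedback genes separated individual mice more than conditions. Socs2, on chr10:95411490-95416212, was at 8.56, 2.61, 9.20 and 12.7 FPKM in the LD livers and 8.74, 6.74, 9.73 and 12.0 FPKM in the ADV livers. L65 alone was low, and the other 7 mice lay between 6.74 and 12.7 FPKM. Cish, on chr9:107296659-107302784, was at 4.42, 8.15, 4.14 and 3.42 FPKM in the LD livers and 3.30, 3.63, 14.0 and 6.25 FPKM in the ADV livers. A94 and L65 were the highest, 1 mouse of each condition. The ADV minus LD log2 differences were 0.34 (-0.61 to 1.29) for Socs2 and 0.26 (-0.73 to 1.25) for Cish. Socs2 changed to -0.13 without L65, and Cish to -0.17 without A94. The relation of Socs2 and Cish in the liver had r = -0.25 (permutation p = 0.538, adjusted p = 0.658 over 11 relations) and a Spearman's rho of -0.10 (permutation p = 0.840). It rested on single mice, with r = 0.20 without L65, -0.61 without A94 and 0.50 without L65 and L104.

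The start of Cish is shown because it is the axis gene with paired matches to the STAT palindrome TTCNNNGAA, which reads the same on both strands. The sequence covers 250 bases before and 20 after the RefSeq start site (GRCm38.p6, chr9:107296409-107296678, + strand), with the matches in capitals.
Cish start: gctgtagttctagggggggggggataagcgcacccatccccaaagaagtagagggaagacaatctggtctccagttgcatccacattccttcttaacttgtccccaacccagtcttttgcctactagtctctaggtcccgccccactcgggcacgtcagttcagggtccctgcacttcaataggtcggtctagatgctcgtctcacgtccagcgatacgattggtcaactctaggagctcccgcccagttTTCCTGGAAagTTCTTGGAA
Promoter windows (250 bases before to 50 after the start) were found for 9 of the 10 genes, all but Socs2, with 14 windows in all. Cish and Igfals held TTCNNNGAA, and the other 7 did not, which says only that these letters are not in those windows. Of the 32851 windows, 8.30% held it. Some genes have several windows, so that the count by gene and the share by window are not alike. GENCODE places exons of Gm17040 and Gm17041 on the opposite strand over exons of Cish, and whether the counting used strand is not given in the sources used here.

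The rest of the pathway was followed through 21 other axis genes. In the liver 15 passed the filter, and 0 had an adjusted p under 0.05 by limma. The difference was above 0 for 11 of the 15, with a median of 0.11, beside 0.10 for all genes, and for 8 of the 15, with a median of 0.014, after scaling by the median ratio. At an unadjusted p under 0.05, 1 was higher in ADV, where 8.65% of all genes were, and without A115 none was. That gene was Ptpn6, which encodes the phosphatase SHP-1 and is abundant in blood cells. Ptpn6 was at 5.87 ± 0.441 FPKM in LD and 9.29 ± 4.08 FPKM in ADV (SD, n = 4 each), and the highest ADV value was 15.2 FPKM. Igfbp7, a related secreted protein, ranged from 44.1 to 46.5 FPKM in LD and from 47.8 to 114 FPKM in ADV. The macrophage markers were higher in ADV for 8 of 8 genes, 5 of them at an unadjusted p under 0.05, and summed to 166 to 244 FPKM in LD and 235 to 718 FPKM in ADV. Stellate and fibroblast markers summed to 119 to 137 FPKM in LD and 165 to 362 FPKM in ADV, and none of the 8 was at 0 in any liver. Hepatocyte markers summed to 58647 to 72321 FPKM in LD and 58717 to 67364 FPKM in ADV. Their part in the values of the axis genes was not tested, and fewer cells of a type and less RNA per cell cannot be told apart in bulk tissue.

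Male-biased liver genes, whose expression follows the pulses of growth hormone in male mice, were below 0 for 11 of the 15 tested in the ADV minus LD difference, with a median of -0.44, which was -0.26 without A94 and -0.62 without A115. None had an adjusted p under 0.05 by limma, and 1 was lower at an unadjusted p under 0.05, where 3.13% of all genes were lower. The count was 1 without A94 (5.66% of all genes) and 3 without A115 (2.96%). After scaling by the median ratio it was 3, where 936 of 12835 genes were lower, and 12 of the 15 were below 0 with a median of -0.54. Over all 8 mice without that scaling the gene was Mup3, a major urinary protein gene of a family with near-identical copies, at 7551 ± 1390 FPKM in LD and 4894 ± 1220 FPKM in ADV (SD, n = 4 each). Cyp2d9, Slco1a1 and Ugt2b38, which encode a cytochrome P450, an organic anion transporter and a glucuronosyltransferase, then had log2 differences of -0.41, -0.77 and -1.21 and missed the unadjusted threshold. Of 16 female-biased liver genes tested, 8 were above and 8 below 0 in the difference, 3 were lower, Fmo2 and Acot3 among them, and 1 was higher (Slc22a27), at an unadjusted p under 0.05, where 3.13% of all genes were lower and 8.65% higher, and none passed after adjustment. Fmo2, a flavin monooxygenase gene, was at 12.1 ± 1.37 FPKM in LD and 7.48 ± 1.18 FPKM in ADV (SD, n = 4 each).

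Fasting and insulin genes, the neighbours of Igfbp1 in its control, had lower means in the ADV livers for most members. Of 18 tested, 14 had a difference below 0 with a median of -0.32, beside 0.10 for all genes. At an unadjusted p under 0.05, 5 passed, all lower in ADV, where 3.13% of all genes were lower, while 0 passed after adjustment by limma. Without A94 there were also 5, where 5.66% of all genes were lower. Without A115 there were 7 lower and 1 higher, where 379 of 12816 genes were lower and 960 higher. Cpt1a, which admits fatty acids to mitochondria, was at 93.0 ± 9.16 FPKM in LD and 58.5 ± 6.23 FPKM in ADV (log2 difference -0.67, adjusted p = 0.210). Ppara, the fatty acid sensor of fasting, was at 47.3 ± 6.54 and 28.5 ± 6.87 FPKM, and Foxo3, a forkhead factor, at 6.69 ± 0.676 and 4.32 ± 0.746 FPKM. Pck1, the entry enzyme of gluconeogenesis, was at 1011 ± 222 and 656 ± 85.4 FPKM (SD, n = 4 each). Igfbp1 and Pck1 had r = 0.58 over the 8 livers (permutation p = 0.126, adjusted p = 0.374), with a Spearman's rho of 0.38 (permutation p = 0.360), and r was -0.13 without L86 and A94, so that the relation rested on those mice.

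In the kidney, Igfbp4 (345 FPKM over 8 mice), Ghr (221 FPKM) and Igfbp3 (84.8 FPKM) were the abundant axis genes. The other 7 lay between 1.66 FPKM for Igf1 and 6.99 FPKM for Cish, and neighbours within these 7 overlapped.

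**Figure D2:**
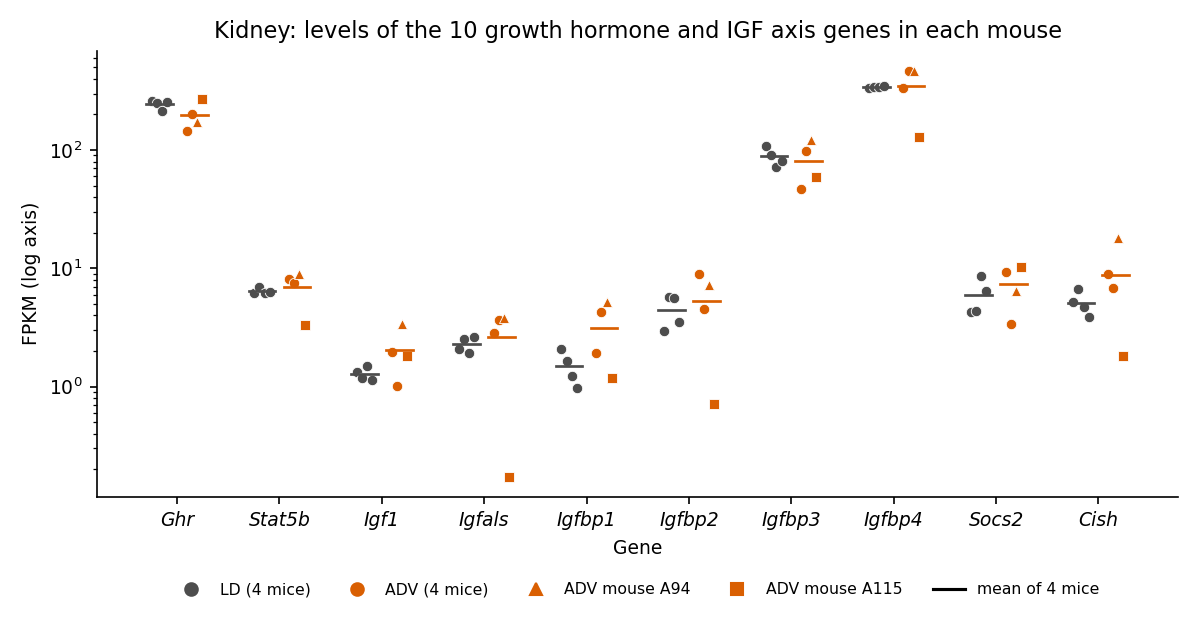
FPKM on a log axis for the 10 axis genes in the kidney of each mouse, with LD mice in grey and ADV mice in orange; each point is 1 mouse and each line the mean of 4. A115 (squares) is the lowest mouse for 5 genes and the highest for Ghr and Socs2, and A94 (triangles) is the highest mouse for 6 genes.

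No axis gene passed the test between ADV and LD in the kidney over all 8 mice. By limma 0 of the 10 genes had an adjusted p under 0.05, where 0% of the 14452 genes tested did, and 0 passed at an unadjusted p under 0.05, where 3.1% of all genes did. No axis gene had groups without overlap, where 265 of the 14452 genes (1.83%) were lower and 139 higher in ADV without overlap. The median difference of the 10 genes was -0.05, beside -0.02 for all genes tested, and it was -0.20 without A94. These counts changed without the kidney of A115. Then 2 of the 10 genes passed an adjusted p of 0.05, where 18.8% of the 14475 genes tested then did, so that the share of axis genes was near that of all genes. In that comparison of 3 ADV with 4 LD mice the median of all genes was 0.20, and scaling by the median ratio brought it to 0.01. The median of the 10 axis genes was 0.44, with 8 of the 10 above 0, and 0.25 with that scaling. After this scaling, 1 of the 10 passed, Ghr, where 16% of all genes did. With libraries weighted by their quality, 2 of the 10 passed over 8 mice, where 16.9% of all genes did.

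Ghr was at 258, 249, 213 and 256 FPKM in the LD kidneys and 146, 201, 173 and 270 FPKM in A75, A91, A94 and A115. A75, A91 and A94 were below every LD mouse and A115 was above every LD mouse. Over 8 mice the log2 difference was -0.34 (95% confidence interval -0.81 to 0.13). Without A115 it was -0.50 (adjusted p = 0.0325 by limma), and with median-ratio scaling as well -0.70 (adjusted p = 0.0322). It was the single axis gene lower without overlap in that comparison, where 8.04% of all genes were. In the liver Ghr was also lowest in A94, A115 and A75, so that A115 had a low receptor level in its liver and the highest in its kidney.

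Igfbp1 was at 2.07, 1.66, 1.23 and 0.981 FPKM in the LD kidneys and 1.92, 4.25, 5.19 and 1.17 FPKM in the ADV kidneys. A91 and A94 were above every LD mouse, and the other ADV mice were within the LD range. The log2 difference was 0.86 (-0.24 to 1.96) over 8 mice and 1.23 without A115 (adjusted p = 0.0476 by limma). This call was lost when median-ratio scaling was added (1.04, adjusted p = 0.0841), and the exact permutation test without A115 gave 0.0571, with overlapping groups. Without A94 the difference was 0.55. Its level rested on 27 to 155 fragments per library.

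Igfals, Stat5b and Cish shared a pattern in the kidney, each with A75, A91 and A94 above every LD mouse and A115 below. Igfals was at 2.08, 2.55, 1.92 and 2.64 FPKM in the LD kidneys and 2.86, 3.66, 3.78 and 0.173 FPKM in the ADV kidneys, and the value of A115 stood on 7 fragments. Stat5b was at 6.21, 6.97, 6.21 and 6.31 FPKM in LD and 8.18, 7.45, 8.95 and 3.34 FPKM in ADV. Cish was at 5.17, 6.72, 4.75 and 3.85 FPKM in LD and 8.91, 6.78, 17.9 and 1.81 FPKM in ADV. Without A115 the log2 differences were 0.56, 0.34 and 1.02, with adjusted p-values of 0.0527, 0.0566 and 0.0570 by limma. These 3 genes were higher in ADV without overlap among the 7 mice, where 24.8% of all genes were.

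Igfbp2 and Igfbp4 were also lowest in A115. Igfbp2 was at 2.95, 5.68, 5.64 and 3.49 FPKM in the LD kidneys and 8.94, 4.54, 7.16 and 0.709 FPKM in the ADV kidneys. Igfbp4 was even in the LD kidneys, at 335, 340, 342 and 349 FPKM, and uneven in the ADV kidneys, at 336, 466, 463 and 129 FPKM. Beside this, the proximal tubule markers summed to 643 FPKM in A115, 2435 FPKM in A94, 2482 FPKM in A75 and 3096 FPKM in A91. The kidney of A115 was also the lowest for distal nephron markers (1260 FPKM, 1875 to 3024 in the others) and podocyte markers (49.2 FPKM, 66.1 to 81.9 in the others). Whether these low marker levels of A115 have a part in the axis values was not tested. Igfbp3, at 108, 91.4, 72.4 and 81.1 FPKM in LD and 47.1, 97.6, 122 and 58.7 FPKM in ADV, spread to both sides of the LD range and had a log2 difference of -0.20 (-0.92 to 0.51), which turned to 0.023 without A75.

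Igf1 and Socs2 complete the kidney. Igf1 was at 1.32, 1.19, 1.48 and 1.13 FPKM in LD and 1.96, 1.02, 3.36 and 1.81 FPKM in ADV. All ADV mice but A91 were above the LD range, and the log2 difference was 0.52 (-0.24 to 1.29) and 0.26 without A94. Socs2 was at 4.29, 4.33, 8.53 and 6.49 FPKM in LD and 9.35, 3.36, 6.45 and 10.2 FPKM in ADV, with a log2 difference of 0.25 (-0.65 to 1.14), which was 0.05 without A115 and -0.14 with median-ratio scaling as well. Socs2 was related between liver and kidney of the same mouse with r = 0.56 (permutation p = 0.126, adjusted p = 0.374 over 11 relations) and a Spearman's rho of 0.64 (permutation p = 0.0962). The relations of Cish, Igf1 and Igfbp1 between the organs had r = 0.41, -0.49 and -0.57, none with an adjusted permutation p under 0.05. Cish turned to r = -0.31 without A94, which held the highest value in both organs, and to r = -0.84 without A94 and L65. Igf1 turned to r = 0.16 without A94, which had the lowest liver and the highest kidney value, and to r = 0.31 without A94 and L63. Igfbp1 had r = -0.30 without A94 and -0.13 without L86 and A94.

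**Figure D3:**
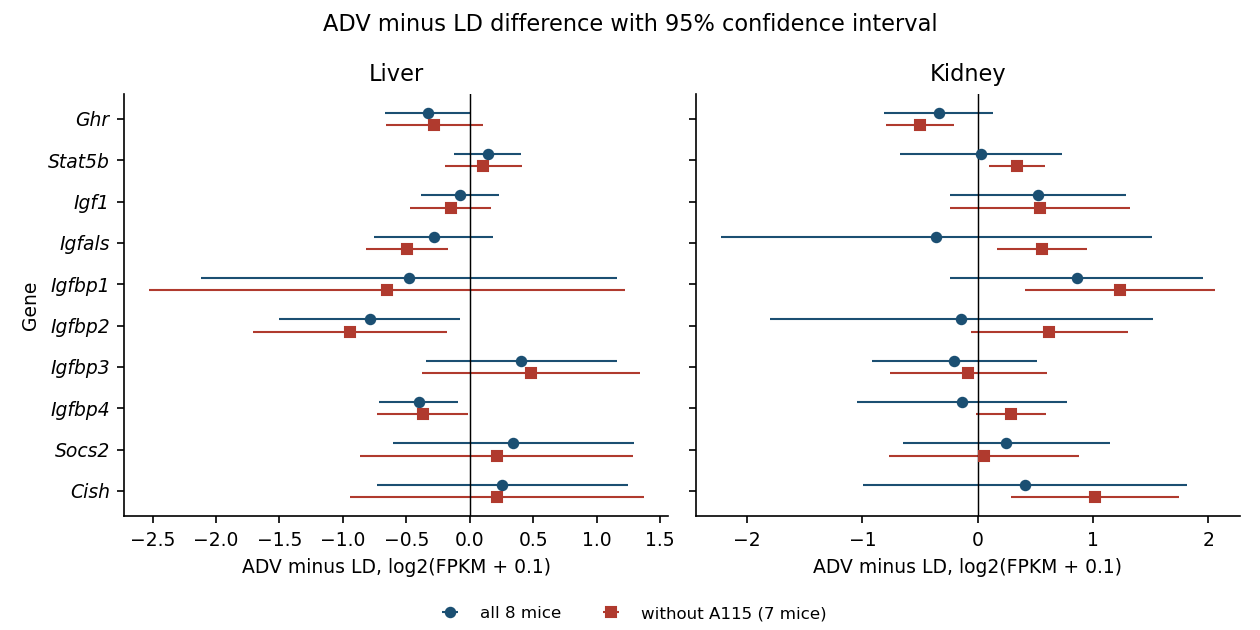
ADV minus LD difference in log2(FPKM + 0.1) for each axis gene in liver and kidney, with 95% confidence intervals from limma, over all 8 mice (circles) and without A115 (squares). In the liver the intervals of Igfbp2 and Igfbp4 lie below 0 in both fits, and in the kidney leaving out A115 narrows the intervals of Igfals, Stat5b and Cish and places them above 0. Without A115 the kidney interval of Igfbp1 also lies above 0 and that of Ghr lies below 0.

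Of the 21 other axis genes, all passed the filter in the kidney, and none passed an unadjusted p of 0.05. Without A115, 6 were higher at an unadjusted p under 0.05, where 29.5% of all genes were, and 2 at an adjusted p under 0.05, where 16.1% were. The lowest p was that of Socs3, the cytokine feedback inhibitor, at 2.62 ± 3.15 FPKM in LD and 6.02 ± 5.73 FPKM in ADV (SD, n = 4 each). Irs2, Socs1 and Igf1r followed with log2 differences of 0.61, 1.17 and -0.17. Of 10 male-biased liver genes tested in the kidney, 3 were lower (Cyp7b1, Slco1a1 and Ugt2b38) and 1 higher (C6) at an unadjusted p under 0.05, where 1.35% of all genes were lower and 1.75% higher. Without A94, 2 were lower and none higher, where 0.861% of all genes were lower and 0.847% higher. Slco1a1 was at 80.8 ± 26.8 FPKM in LD and 40.4 ± 18.7 FPKM in ADV, a log2 difference of -1.05. Of 11 female-biased genes, Fmo2 was lower (157 ± 21.6 against 113 ± 16.3 FPKM) and Tox higher at that level, and without A94, 2 were lower and none higher. Cyp2a4 and Acot3 had log2 differences of -0.76 and -0.48. Of 14 fasting and insulin genes, 2 were lower and none higher, also without A94. Pck1 was at 685 ± 93.4 FPKM in LD and 418 ± 117 FPKM in ADV, and Ppara at 20.1 ± 1.65 and 12.9 ± 4.62 FPKM (SD, n = 4 each), and G6pc, the last enzyme of glucose release, had a log2 difference of -0.33. Over 8 mice, none of the genes in these lists passed in the kidney after adjustment by limma. Without A115, 1 male-biased, 1 female-biased and 2 fasting and insulin genes were lower and 2 fasting and insulin genes higher at that level, where 2.68% of all genes were lower and 16.1% higher. With median-ratio scaling as well, 2 male-biased, 1 female-biased and 4 fasting and insulin genes were lower and 1 fasting and insulin gene higher. Of the 14475 genes tested, 1143 were then lower and 1166 higher.

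The ADV effect was then compared between the organs. By limma 0 of the 10 axis genes had an adjusted p under 0.05 for liver effect minus kidney effect, where 0% of the 14379 genes tested did, and 0 passed at an unadjusted p, where 3.73% did. For Igfbp4, which lay below every LD mouse in the ADV livers and overlapped in the kidney, the difference between the organs was -0.27 (-1.21 to 0.67). Without A115 it was -0.66 (adjusted p = 0.0899). Without A115, 1 axis gene passed, Igfals, where 2.88% of the 14397 genes tested did. Its difference was 0.08 over 8 mice and -1.05 without A115 (adjusted p = 0.0277 by limma), and its kidney value in A115 stood on 7 fragments. With libraries weighted by their quality the difference of Igfbp4 was -0.83 (adjusted p = 0.0175), where 9.05% of all genes passed. The call of Igfals was lost when median-ratio scaling was added (-0.97, adjusted p = 0.0729).

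More axis genes passed the test between the organs than between the light conditions, as was also the case for all genes. In the LD mice, 7 of the 10 axis genes had an adjusted p under 0.05 by limma between liver and kidney. Of the 14379 genes tested, 9533 did, so that the share of axis genes was near that of all genes. Higher in the liver were 5 genes, where 11% of all genes were, and higher in the kidney were 2, where 55.3% were. The median liver minus kidney difference of all genes was -0.79, and it was -0.03 after scaling by the median ratio, so that differences are also to be read from that point. Igf1 had a log2 difference of 6.11 ± 0.25 (SE), with 95.3 ± 12.9 FPKM in the liver and 1.28 ± 0.157 FPKM in the kidney (SD, n = 4 each). Igfbp2 followed with 5.99 ± 0.59, Igfals with 4.26 ± 0.62 and Igfbp1 with 4.21 ± 0.68. Igfbp4 was higher in the liver by 0.95 ± 0.31 (adjusted p = 0.0136).

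Igfbp3 had the largest difference towards the kidney, at 88.3 ± 15.3 FPKM there and 4.99 ± 0.961 FPKM in the liver (SD, n = 4 each), a log2 difference of -4.12 ± 0.35. Ghr was higher in the kidney by FPKM, 244 ± 20.6 against 156 ± 21.6, with a log2 difference of -0.65 (adjusted p = 0.00671 by limma), which turned to 0.17 after scaling by the median ratio. The intracellular genes Stat5b (0.07), Socs2 (0.33) and Cish (-0.08) had small log2 differences between the organs that missed the threshold. They lay above the median of all genes, and after scaling by the median ratio Stat5b (0.87) and Socs2 (1.13) passed.

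In the ADV mice, 6 of the 10 axis genes passed, where 8964 of the 14379 genes tested did. Of the 6, 4 genes were higher in the liver (11.2% of all genes) and 2 in the kidney (51.2% of all genes). Igf1 had a difference of 5.51, Igfbp2 5.34, Igfals 4.33 and Igfbp1 2.88, and Igfbp3 -3.51 and Ghr -0.63. Igfbp4 had 0.68 (adjusted p = 0.0679 by limma). After scaling by the median ratio, 7 genes were higher in the liver and 1, Igfbp3, in the kidney in either condition. The shares of all genes were then 25.1% and 29.4% in the LD mice and 24.8% and 26.6% in the ADV mice. The sign of the organ difference was the same in both conditions for each of the 10 genes, and the comparison of the ADV effect between the organs, which tests a change in it, called none.

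**Figure D4:**
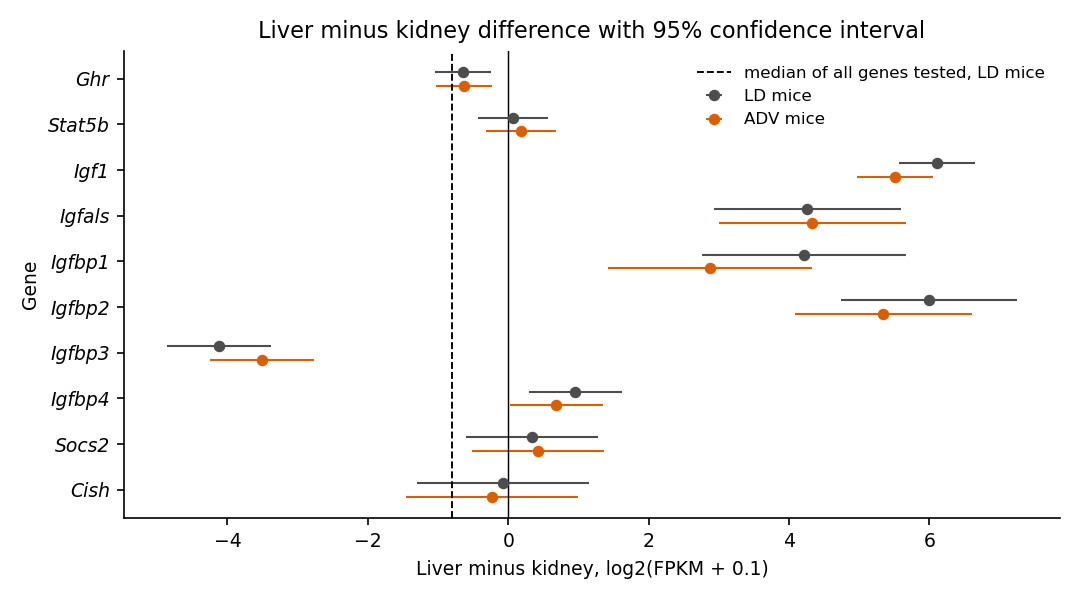
Liver minus kidney difference in log2(FPKM + 0.1) for each axis gene, with 95% confidence intervals from limma, in LD mice (grey) and ADV mice (orange); the dashed line is the median of all genes in the LD mice. Igf1, Igfals, Igfbp1 and Igfbp2 lie from 2.88 to 6.11 on the liver side, Igfbp3 lies at -4.12 and -3.51 on the kidney side, and Ghr lies near the dashed line.

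A94 held an extreme value for many axis genes in both organs. In its liver it held the lowest value of the 8 mice for 5 of the 10 genes (Ghr, Igf1, Igfals, Igfbp1 and Igfbp2) and the highest for Igfbp3 and Cish. In its kidney it held the highest value for 6 (Stat5b, Igf1, Igfals, Igfbp1, Igfbp3 and Cish). The share of all genes for which A94 was lowest or highest was not counted, and its libraries stood apart over all genes. Its mean correlation with the other livers was 0.941, where the others had 0.977 to 0.982. With the other kidneys it was 0.932, and only A115 was lower (0.858). Beside this, its macrophage marker sum was 718 FPKM in the liver and 458 FPKM in the kidney, and its lymphocyte marker sum 83.6 and 96.1 FPKM. Its stellate and fibroblast marker sum was also the highest, 362 FPKM in the liver (119 to 214 in the others) and 173 FPKM in the kidney (48.0 to 143). The hepatocyte markers of its liver summed to 58717 FPKM, and those of the LD livers to 58647 to 72321 FPKM. Whether RNA of immune, stellate or fibroblast cells has a part in the axis values was not tested.

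**Figure D5:**
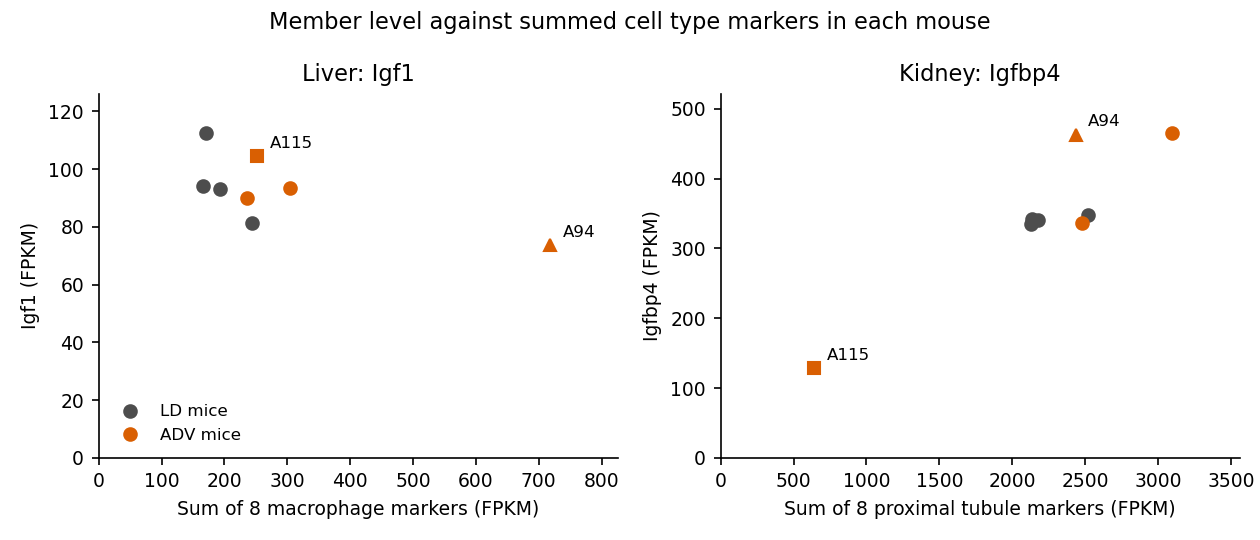
Level of Igf1 in the liver against the summed FPKM of 8 macrophage markers (left) and of Igfbp4 in the kidney against the summed FPKM of 8 proximal tubule markers (right), 1 point per mouse, LD in grey and ADV in orange. A94 lies at 718 FPKM of macrophage markers with the lowest Igf1 (73.6 FPKM), and A115 lies at 643 FPKM of tubule markers with the lowest Igfbp4 (129 FPKM).

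The genes whose log2 levels were most like those of 4 axis genes across the 8 mice were listed by Pearson's r, as a description without a test. In the liver these were Adtrp (0.94), Aox3 (0.93) and Hsd17b6 (0.93) for Igf1, and Wac (0.94), Irs2 (0.93) and Dlc1 (0.93) for Igfbp1. For Socs2 they were 2310043M15Rik (0.90), Map4k5 (0.90) and Slc39a10 (0.87), and for Cish Adra2b (0.98), Ankrd27 (0.98) and Rad18 (0.97). In the kidney they were Rars (0.96), Kif23 (0.95) and Cdk6 (0.94) for Socs2, and Nrap (0.99), Tmem268 (0.99) and Fscn1 (0.98) for Cish. Irs2, which encodes the insulin receptor substrate, ranged from 0.698 to 4.36 FPKM in the liver, and Hsd17b6 from 30.8 to 173 FPKM. Each list was drawn from 12718 genes in the liver and 14328 in the kidney over 8 points that share their libraries.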

How the data were processed

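Poly(A) RNA-seq libraries of liver and kidney of the same 8 mice were used. The authors trimmed reads, mapped them to mm10 with STAR (2.5.4b in the submitters' processing notes), removed reads with a mapping quality below 10 and used HOMER to count over exons of canonical UCSC gene models. The deposited values are FPKM, although the column names say RPKM, and values of up to 100 fragments came in steps of 0.5 fragment of the library total (tolerance 0.02 of a step). The study used 2 sequencing providers, and the library assignment is not given in the sources used here. Provider can therefore be told apart neither from condition nor from organ. The transcript length column was used only to recover fragments.

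Genes with a mean above 0.5 before division by exon length were tested with limma 3.58.1 (R 4.3.3, trended prior) on log2(FPKM + 0.1), with Benjamini-Hochberg adjustment over all tested genes. Fold changes of low genes are understated on this scale. Single genes were also tested by exact permutation over 70 assignments (scipy 1.17.1). The organs were compared in 1 fit over 4 groups. Deviations of liver and kidney of the same mouse, paired by the mouse number in the sample titles, correlated from -0.01 to 0.51, over 0.1 in 4 of 8 mice. The members and lists were chosen with earlier results of these data known. Named genes were all members, the 4 genes of each list with the lowest p per organ, other axis genes with p under 0.05, and the 3 genes most like chosen members, and some of the list genes are not reported here. Mup21 and Cyp3a41b of the lists were not found. Alternatives were another pseudocount (0.5 or 1), no filter, a mean FPKM above 1, median-ratio or quantile scaling, no mitochondrial genes, no trend, array weights, limma-voom on recovered fragments, both organs in 1 fit, each mouse left out, and mouse as a replicate block. The script was tested on simulated data. Sequences are from RefSeq (GRCm38.p6).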

Additional observations from a re-analysis of the deposited data

Results flagged for a closer look

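Of 40 groups of 4 mice (10 genes, 2 organs and 2 conditions), 2 held a mouse whose gap to its nearest neighbour took up more of the group's range than Dixon's 95% limit, and chance gives about 1 in 20 such groups. Igfbp3 in the ADV livers was 1 of them, with A94 at 14.2 FPKM above 4.08 to 5.74 FPKM in the others (ratio 0.835). Stat5b in the LD kidneys was the other, with L65 at 6.97 FPKM above 6.21 to 6.31 FPKM (ratio 0.868).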

How the results depend on the processing

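The count of axis genes with an adjusted p under 0.05 was 0 in the liver under every alternative and with each mouse left out. In the kidney it was 2 with array weights (16.9% of all genes passed), 1 with A115 left out and median-ratio scaling, and 0 to 2 with 1 mouse left out. The difference of the ADV effect between organs gave 1 with array weights (9.05% of all genes passed), 0 with A115 left out and median-ratio scaling, and 0 to 1 with 1 mouse left out. With mouse as a replicate block it gave 0, and the organ differences gave 7 in LD and 6 in ADV, so that the paired fit changed no call. With 1 mouse left out the organ differences gave 6 to 7 in LD and 6 in ADV. The exact test, with alternatives chosen after seeing the data, passed 1 gene in the liver (0 to 2 with 1 mouse left out) and 0 in the kidney (0 to 4, with 4 without A115: Ghr, Igfals, Stat5b and Cish). It was not run over all genes. In the liver 243 of 12835 genes were lower and 891 higher in ADV without overlap. In the kidney without A115, 24.8% of all genes were higher and 8.04% lower without overlap. The relations gave 0 throughout.

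Some differences changed sign, most of them ones that had missed the threshold. With array weights, Igfbp1 (0.54) and Cish (-0.31) did so in the liver and Igfals (0.52), Igfbp2 (0.54), Igfbp3 (0.016) and Igfbp4 (0.32) in the kidney. With A115 left out and median-ratio scaling, Igfals (0.37), Igfbp2 (0.43), Igfbp4 (0.092) and Socs2 (-0.14) did so in the kidney. With 1 mouse left out, the liver ranges were -0.15 to 0.018 for Igf1, -1.003 to 0.14 for Igfbp1, -0.13 to 0.61 for Socs2 and -0.17 to 0.51 for Cish. The kidney ranges were -0.71 to 0.56 for Igfals, -0.54 to 0.62 for Igfbp2, -0.43 to 0.023 for Igfbp3, -0.33 to 0.29 for Igfbp4, -0.12 to 0.34 for Stat5b and -0.061 to 1.02 for Cish. Between the organs, median-ratio scaling turned Ghr, which had passed in both conditions, to 0.17 in LD and 0.10 in ADV, where it no longer passed, and Cish to 0.72 and 0.50, quantile normalization turned Cish to 0.72 and 0.40, and median-ratio scaling without A115 gave 0.16 (Ghr) and 0.71 (Cish) in LD and 0.46 (Ghr) in ADV. Leaving out mitochondrial genes gave -0.064 for Stat5b in LD, and array weights 0.013 for Cish in LD and -0.10 for Stat5b in ADV. With 1 mouse left out, Stat5b ranged from -0.024 to 0.14 in LD and -0.17 to 0.35 in ADV, and Cish from -0.88 to 0.16 in ADV. The difference of the ADV effect between organs turned for Igfals to -0.14 and -0.23 with a pseudocount of 0.5 and 1, -0.69 with array weights and -0.97 with A115 left out and median-ratio scaling, and ranged from -1.05 to 0.59 with 1 mouse left out. The causes were not tested.

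With 4 mice a group the exact test cannot go below 0.0286, and intervals for Igfbp1, Socs2 and Cish in the liver span over 1.5 log2 units. Kidney values of Igfals and Igfbp2 in A115 rest on 7 and 18 fragments.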
